A study of Mus musculus with 6 samples.

Results

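The Sonic hedgehog pathway was described through 10 genes of the deposited count table, chosen by symbol: the ligand Shh, the receptor Ptch1, the signal transducer Smo, the co-receptors Gas1 and Cdon, the ligand-binding inhibitor Hhip, the transcription factors Gli1, Gli2 and Gli3, and the ventral target Nkx6-2. All 10 symbols were found among the 45583 rows of the table. RNA sequencing counts came from the cerebral cortex of 6 male fetuses of the Cyp19-EGFP strain at GD15.5 (gestational day), each labelled wild type and positive for the male gene Sry. The strain carries an added artificial chromosome with Cyp19a1, the aromatase gene, marked by a green fluorescent protein gene, on an FVBN background, and the labels do not say whether these fetuses carried it. Dams of 3 fetuses received the plastic monomer bisphenol A (BPA) at 50 µg/kg, injected under the skin in ethanol and peanut oil on 5 days of mid-gestation that ended the day before collection, and dams of the other 3 received the vehicle alone. The question was whether maternal BPA moved the expression of this pathway in the fetal cortex. The labels name fetuses but not dams, so p-values measure the spread between these fetuses, which may have shared a litter.

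Hedgehog signalling works by relief of a block. In the absence of ligand, Ptch1 keeps Smo out of the primary cilium and the Gli proteins, Gli3 above all, are cut into repressors. Binding of Shh to Ptch1, helped by Gas1, Cdon and Boc, releases Smo, and full-length Gli2 and Gli3 then switch on targets that include Gli1, Ptch1 and Hhip. In the fetal forebrain Shh comes from ventral and midline sources and drives ventral identity, while Gli3 repressor protects dorsal, cortical identity. The levels of Gli1, Ptch1 and Hhip are therefore the usual transcript readouts of the pathway.

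Total counts ran from 3444601 in BPA replicate 3 to 7180835 in vehicle replicate 2. Levels are in CPM, read counts per gene brought to a common, scaled library size. The 12 dorsal pallium markers, led by Neurod6 and Bcl11b, summed to 3617 to 4352 CPM in vehicle and 3868 to 4202 CPM in BPA. The floor plate gene Foxa2 had 0 counts in all 6 libraries. The 21 ventral telencephalon markers, described further below, summed to 1558 to 1834 CPM in vehicle and 1362 to 1501 CPM in BPA. The dorsal markers and Foxa2 therefore do not show that the samples were cortex alone. The summed level of 8 choroid plexus markers, led by Ttr and Clic6, was 226 CPM in vehicle replicate 2 and 357 CPM in BPA replicate 2, against 12.5 to 21.7 CPM in the other 4. Vessel and meninges markers (Pdgfrb, Kdr and 8 more) summed to 140 to 207 CPM in vehicle and 139 to 196 CPM in BPA, blood markers (Hbb-bs, Hba-a1 and 3 more) to 263 to 588 and 314 to 401 CPM, and oligodendrocyte precursor markers (Pdgfra, Olig1 and 2 more) to 66.9 to 77.1 and 53.1 to 75.9 CPM. Among the lists other than the ventral one, Hba-a1 and Olig1 had an unadjusted p under 0.05. Olig1 is also in the ventral list, and Pax6 is in both the dorsal and the radial glia list. Of 13741 genes tested with edgeR's quasi-likelihood test, 0 (0%) passed an adjusted p of 0.1, and 302 (2.20%) had an unadjusted p under 0.05. The 3 CPM values of one group all lay above those of the other for 928 genes (6.75%).

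Levels were first compared between the 10 genes per kilobase of exon, since a longer transcript gives more reads. The co-receptor Cdon was highest at 24.6 CPM per kb ± 4.26 (SD, n = 6 libraries), followed by Gas1 at 17.7 ± 2.80, Gli3 at 11.4 ± 2.19, Gli2 at 10.4 ± 1.59 and Smo at 10.3 ± 0.821 CPM per kb. Ptch1 stood at 4.88 ± 0.523 and Gli1 at 2.04 ± 0.177 CPM per kb. Far below were Shh at 0.438 ± 0.203, Hhip at 0.103 ± 0.0366 and Nkx6-2 at 0.10 ± 0.0885 CPM per kb. The genes that receive the signal stood above the ligand, and the ranges of Smo, Ptch1, Gli1 and Shh did not meet, each lying wholly below the one before it. Cdon exceeded Gas1, Gas1 exceeded Gli3 and Gli3 exceeded Gli2 in each of the 6 libraries although their ranges over libraries overlapped, whereas Gli2 was above Smo, and Hhip above Nkx6-2, in only 3 of 6. Cdon was above 84.0% and Gli1 above 20.3% of the 13126 tested genes with a known exon length.

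**Figure D1:**
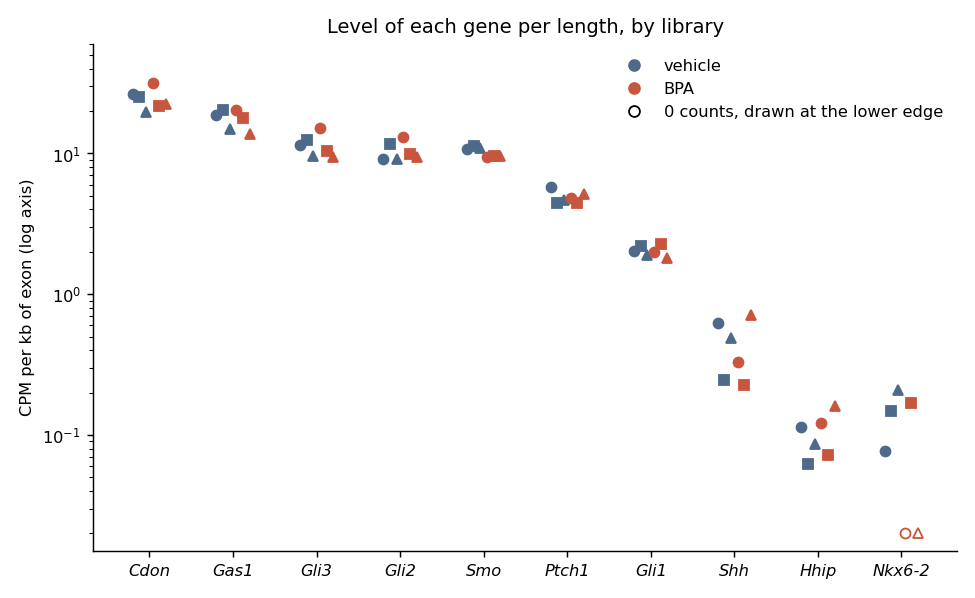
Level of each of the 10 genes in CPM per kilobase of exon (log axis), 1 point per library, vehicle in blue and BPA in red, ordered by mean. Cdon lies at the top with a mean of 24.6 CPM per kb, Shh at 0.438, and the open symbols of Nkx6-2 are libraries with 0 counts.

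Of the 10 genes, 7 had enough counts to be tested. In edgeR's quasi-likelihood test, 0 of these 7 passed an adjusted p of 0.1 or had an unadjusted p under 0.05. Over all genes tested the shares were 0% and 2.20%, so 0 of 7 is no result about these genes. DESeq2, limma-voom and edgeR's exact test also gave 0 of 7 at either threshold. Shh, Hhip and Nkx6-2 had too few counts. Of the 7, 3 had a log2 fold change below 0, against 49.5% of all genes tested, and their median log2 fold change was 0.0040, against 0.0016 over all genes tested. The values ran from -0.21 to 0.12 on the log2 scale. The precision of each gene is what limits this comparison, and it is given below as a 95% interval of the fold change. In whole tissue, fewer cells of a type and less RNA per cell cannot be told apart.

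**Figure D2:**
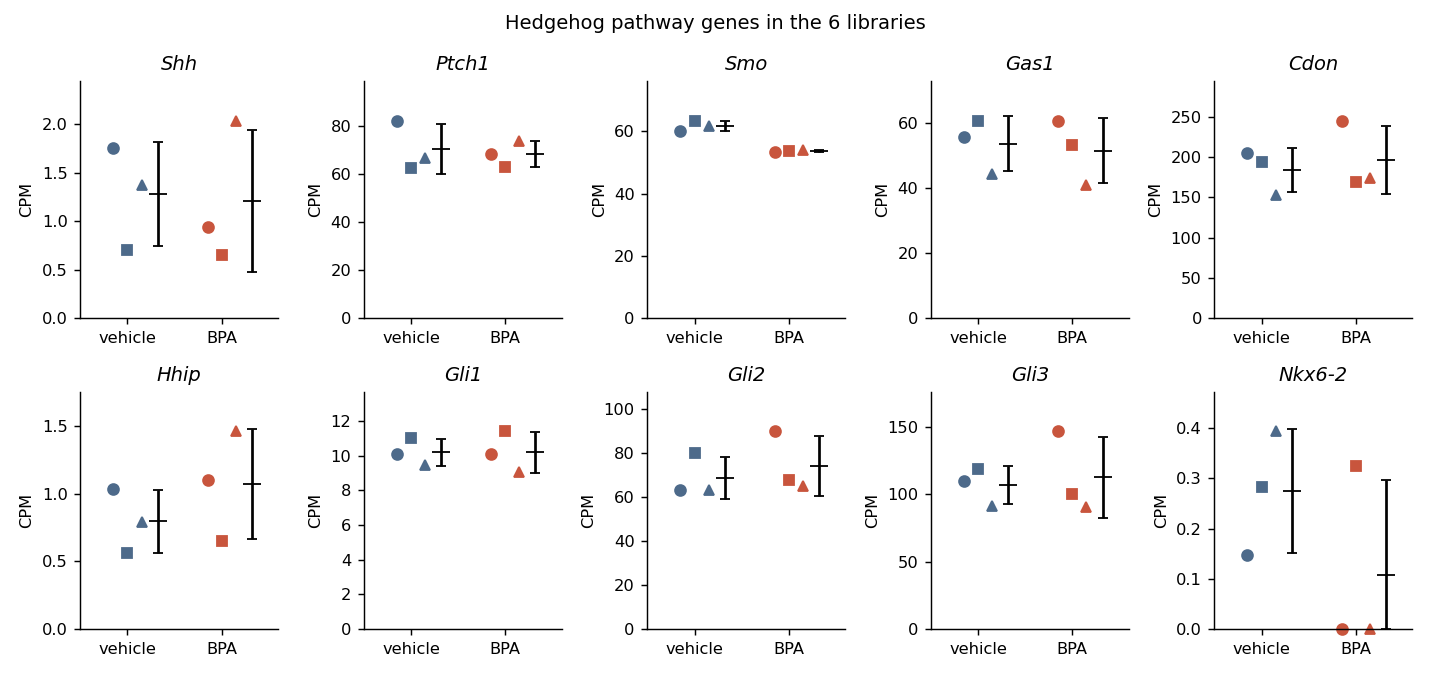
CPM of each of the 10 genes (linear axes from 0), with vehicle in blue and BPA in red; circles, squares and triangles are replicates 1, 2 and 3, and the black bar is the mean with its SD (n = 3; the lower arm of Nkx6-2 in BPA stops at 0). The groups overlap in every panel except that of Smo, where the 3 BPA libraries lie at 53.4 to 54.0 CPM and the 3 vehicle libraries at 60.2 to 63.5 CPM.

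The ligand came first. Shh (GRCm38 chromosome 5, 28456815 to 28467256, minus strand) had 12, 5 and 7 counts in the vehicle libraries and 6, 4 and 7 in the BPA libraries, which is 1.76, 0.704 and 1.38 CPM against 0.942, 0.650 and 2.04 CPM. Both the highest and the lowest CPM were BPA libraries. Summed over 3 libraries, Shh had 24 counts in vehicle and 17 in BPA, a ratio of 0.843 with a 95% exact interval of 0.425 to 1.64 that covers counting error alone. Mean CPM was 1.28 in vehicle and 1.21 in BPA. An exact two-sided permutation test of the difference in these means gave p = 0.900, where 0.1 is the smallest p that 3 against 3 can give. No difference was detected at this depth. The interval leaves out variation between fetuses, so it is not a limit beyond which a difference would have been detected. Of the 50-base words in Shh exons 23.6% occur in other transcripts, most of them in the opposite-strand 9530036O11Rik, which had 0 to 1 counts.

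Shh was lowest in vehicle replicate 2 and BPA replicate 2, the libraries with high choroid plexus markers, whose part in this was not tested. Its profile over the 6 libraries was compared with all 13741 tested genes by the root mean square difference of centred log2 CPM. The nearest were Grin2a, a glutamate receptor subunit gene, at 0.135, the predicted gene Gm28192 at 0.139, and Scn9a, a sodium channel gene, at 0.140, where the median over all genes was 0.510. Shh had 4 to 12 counts per library and an SD of 1.17 times the counting error in vehicle and 1.38 times in BPA, so this order is given as a description only.

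Ptch1, the Shh receptor and itself a target, is on chromosome 13 (63508328 to 63573598, minus strand). It was at 82.1, 62.6 and 66.5 CPM in vehicle and at 68.2, 62.9 and 73.5 CPM in BPA. The highest and the lowest library were both vehicle, and the groups overlapped throughout. The means were 70.4 CPM ± 10.3 (SD, n = 3) and 68.2 CPM ± 5.32 (SD, n = 3), a log2 fold change of -0.052 with SE 0.124. The 95% interval of the fold change was 0.804 to 1.16 (edgeR, adjusted p = 1).

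Smo, which passes the signal into the cell, was the 1 gene of the 7 tested whose groups did not overlap, beside 6.75% of all genes. Smo (chromosome 6, 29735503 to 29761365, plus strand) was at 60.2, 63.5 and 61.9 CPM in vehicle and at 53.4, 53.6 and 54.0 CPM in BPA. All 3 BPA libraries lay below all 3 vehicle libraries, with means of 53.7 CPM ± 0.293 (SD, n = 3) and 61.9 CPM ± 1.67 (SD, n = 3). The log2 fold change was -0.21 (SE 0.105), the 95% interval of the fold change 0.743 to 1.01, and the unadjusted p 0.0694 (edgeR, adjusted p = 1), so the difference did not pass. The spread among the BPA libraries, 0.293 CPM, was below the 3.31 CPM that counting error alone gives at 185 to 340 counts. The counting intervals of single libraries met, from 54.5 to 66.3 CPM for vehicle replicate 1 and from 46.5 to 62.3 CPM for BPA replicate 3. With 1 library left out, the unadjusted p ran from 0.0749 to 0.137 (edgeR).

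The co-receptors Gas1 and Cdon hold Shh at the cell surface and hand it to Ptch1. Gas1 (chromosome 13, 60174405 to 60177365, minus strand) was at 55.7, 60.7 and 44.4 CPM in vehicle and at 60.5, 53.1 and 40.8 CPM in BPA. The replicate 3 library was the lowest in each group and the groups overlapped. Its log2 fold change was -0.048 (SE 0.148), with a 95% interval of the fold change of 0.778 to 1.2. Gas1 shares 17% of its 50-base words with other transcripts, mostly the opposite-strand Gm48488, which has no row under that symbol in the count table. Whether the counting used strand is not given in the sources used here.

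Cdon (chromosome 9, 35421128 to 35507652, plus strand) was at 205, 194 and 153 CPM in vehicle and at 245, 169 and 174 CPM in BPA. The highest library was BPA replicate 1 and the other 2 BPA libraries lay within the vehicle range. Its log2 fold change was 0.094 (SE 0.141), with a 95% interval of the fold change of 0.867 to 1.31. For both co-receptors edgeR gave an adjusted p = 1.

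Hhip, which binds hedgehog ligands and takes them away from Ptch1, is on chromosome 8 (79965851 to 80058006, minus strand). It had 7, 4 and 4 counts in vehicle and 7, 4 and 5 in BPA, or 1.03, 0.563 and 0.789 CPM against 1.10, 0.650 and 1.46 CPM. The 15 vehicle and 16 BPA counts gave a ratio of 1.27 with a 95% exact interval of 0.588 to 2.76 for counting error. Mean CPM was 0.794 in vehicle and 1.07 in BPA. An exact two-sided permutation test of the difference in these means gave p = 0.400. No difference in Hhip was detected at this depth.

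The Gli transcription factors carry the signal to the genome, Gli1 as an activator only, Gli2 chiefly as an activator and Gli3 chiefly as a repressor. Gli1 (chromosome 10, 127329882 to 127341974, minus strand) was at 10.1, 11.0 and 9.47 CPM in vehicle and at 10.1, 11.4 and 9.04 CPM in BPA. The group means were alike at 10.2 CPM ± 0.759 and 10.2 CPM ± 1.17 (SD, n = 3), and the 95% interval of the fold change was 0.761 to 1.32. Gli1 rested on 31 to 78 counts per library, and its spread was below the counting error in both groups.

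Gli2 (chromosome 1, 118834132 to 119053619, minus strand) was at 63.1, 79.7 and 63.1 CPM in vehicle and at 89.7, 67.8 and 64.8 CPM in BPA. One vehicle library lay among the BPA values. The log2 fold change was 0.12 (SE 0.139), with a 95% interval of the fold change of 0.882 to 1.33. With 1 library left out, its log2 fold change ran from -0.051 without BPA replicate 1 to 0.24 without vehicle replicate 2.

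Gli3 (chromosome 13, 15463235 to 15730026, plus strand) was at 110, 119 and 91.7 CPM in vehicle and at 147, 100 and 91.0 CPM in BPA. BPA replicate 1 was highest and BPA replicate 3 lowest, so that the BPA libraries spanned the vehicle range on both sides. The log2 fold change was 0.082 (SE 0.153), with a 95% interval of the fold change of 0.845 to 1.33. For each of the 3 Gli genes edgeR gave an adjusted p = 1.

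The balance among the Gli genes does not depend on library scaling. Per kilobase of exon, Gli3 made up 48.1% ± 2.22 (SD, n = 3) of the summed Gli level in vehicle and 47.5% ± 2.51 in BPA, Gli2 43.1% ± 2.26 and 44.1% ± 1.28, and Gli1 8.84% ± 0.404 and 8.48% ± 1.74. The log2 ratio of Gli1 to Gli3 counts was -3.43, -3.43 and -3.26 in the vehicle libraries and -3.86, -3.13 and -3.31 in the BPA libraries. BPA replicate 1 was below all vehicle libraries and BPA replicate 2 above all of them. The mean ratio was lower in BPA by 0.059 on the log2 scale, and an exact two-sided permutation test gave p = 0.900, with 0.1 the smallest p it allows.

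Nkx6-2, a homeobox gene of ventral progenitors, was at the limit of detection. It had 1, 2 and 2 counts in vehicle and 0, 2 and 0 in BPA. All 6 libraries were at or below 3 counts, the level taken here as the limit of detection, so no fold change is given and no difference was detected. On unscaled library totals, that limit stood at 0.418 CPM in the deepest and 0.871 CPM in the shallowest library. The 95% counting intervals of the libraries with 0 counts reached higher, to 0.579 CPM in BPA replicate 1 and 1.08 CPM in BPA replicate 3. Nkx6-2 (chromosome 7, 139579376 to 139582797, minus strand) overlaps exons of Inpp5a on the opposite strand, which had 73 to 178 counts, and 10.7% of its 50-base words occur in other transcripts.

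The genes differed in how much they varied between fetuses of the same group. Cdon had an SD of 27.6 CPM in vehicle and 42.7 CPM in BPA, against 5.40 and 6.24 CPM from counting error. Gli3 had 13.8 and 29.7 CPM against 4.12 and 4.69 CPM. The SDs of Ptch1, Gas1 and Gli2 were 3.06, 2.87 and 2.89 times counting error in vehicle. In BPA they were 1.41, 3.13 and 3.55 times. As a share of the mean, the vehicle SDs of Cdon, Gli3, Ptch1, Gas1 and Gli2 lay between 12.9% (Gli3) and 15.6% (Gas1). Their BPA SDs lay between 7.79% (Ptch1) and 26.4% (Gli3). The fetus with the highest Cdon, Gli2 and Gli3 was BPA replicate 1 in each case, while Gas1, Gli1 and Gli3 were lowest in BPA replicate 3, the shallowest library. Of the 10 radial glia markers, 2 were highest in BPA replicate 1 and 2 were lowest there, while 4 were highest in vehicle replicate 2 and 4 lowest in BPA replicate 3. The most abundant, Ptprz1 and Vim, were highest in vehicle replicate 1 and vehicle replicate 2. The 2 with their peak in BPA replicate 1 were Nes and Pax6, named after their values were seen. Nes was at 345, 389 and 300 CPM in vehicle and at 411, 351 and 294 CPM in BPA, and Pax6 at 95, 131 and 92.1 CPM against 135, 110 and 75.9 CPM. Slc1a3 and Hes5 were the 2 lowest in BPA replicate 1, Slc1a3 at 134 CPM. The summed level of all 10 radial glia markers stayed at 2326 to 2390 CPM in vehicle and 2322 to 2373 CPM in BPA, and 0 of 10 had an unadjusted p under 0.05. Their part in the spread of Cdon, Gli2 and Gli3 was not tested.

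**Figure D3:**
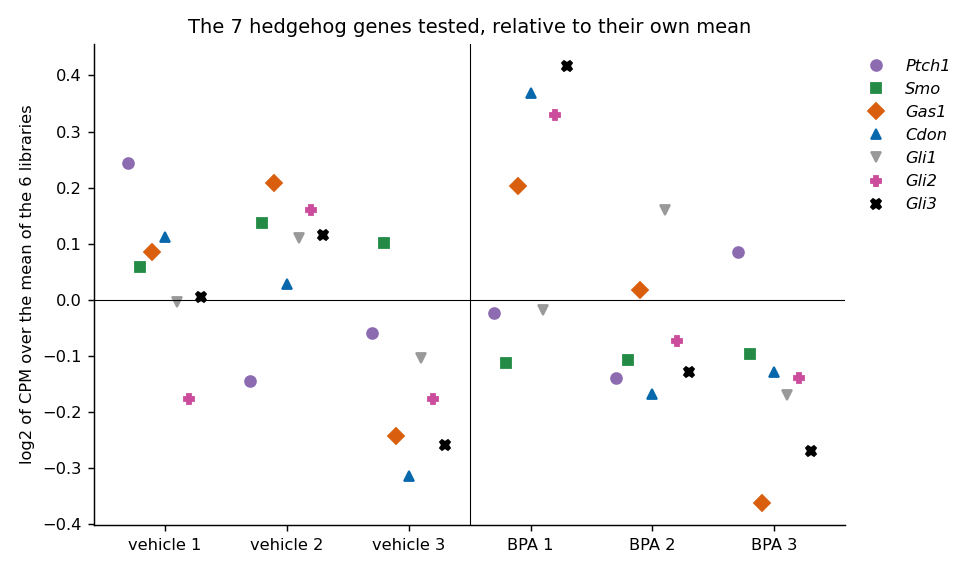
Log2 of CPM over the gene's own mean of the 6 libraries, for the 7 genes with enough counts to be tested, with libraries on the horizontal axis and 1 symbol per gene. Cdon, Gli2 and Gli3 peak together in BPA replicate 1, whereas Smo lies above 0 in the 3 vehicle libraries and below 0 in the 3 BPA libraries.

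The rest of the pathway was examined through 47 further genes, of which 39 were tested. None of the 39 passed an adjusted p of 0.1, and 3 (7.69%) had an unadjusted p under 0.05 in edgeR's quasi-likelihood test, against 2.20% of all genes tested. The 3 were Boc, Evc and Lrp2. Their median log2 fold change was 0.020 over all 39, with 18 genes below 0 and 21 above. Leaving out 1 library gave from 0 to 5 such genes, and 0 without vehicle replicate 3.

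Boc, a co-receptor related to Cdon, was at 54.3, 67.4 and 49.1 CPM in vehicle and at 84.2, 68.1 and 61.3 CPM in BPA. A single BPA library, replicate 3, fell within the vehicle range. The log2 fold change was 0.33 (SE 0.141; edgeR, unadjusted p = 0.0352, adjusted p = 1), and with 1 library left out the log2 fold change ran from 0.18 without BPA replicate 1 (unadjusted p = 0.240) to 0.47 without vehicle replicate 2 (unadjusted p = 0.00492). The unadjusted p was also above 0.05 without vehicle replicate 1 (0.0804) or vehicle replicate 3 (0.159). Per kilobase of exon Boc, at 14.4 CPM per kb, stood between Gas1 and Gli3.

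Evc, a ciliary protein gene needed for the response to Smo, was at 20.1, 21.4 and 16.8 CPM in vehicle and at 28.0, 28.0 and 19.8 CPM in BPA. Its log2 fold change was 0.39 (SE 0.160; edgeR, unadjusted p = 0.0267, adjusted p = 1), and with 1 library left out the log2 fold change ran from 0.30 without vehicle replicate 3 (unadjusted p = 0.112) to 0.52 without BPA replicate 3 (unadjusted p = 0.00495). The unadjusted p was also above 0.05 without BPA replicate 1 (0.113) or BPA replicate 2 (0.101). Evc2, whose product binds that of Evc, was named after its values were seen. It was at 11.5, 15.9 and 13.8 CPM in vehicle and at 17.6, 17.7 and 16.6 CPM in BPA, without overlap, at a log2 fold change of 0.34 (SE 0.167; edgeR, unadjusted p = 0.0607). Tulp3, a gene of ciliary transport, was the other of the 39 without overlap, at 42.2, 45 and 39.4 CPM against 49.2, 46.5 and 46.1 CPM. These 2 of 39 stand beside 6.75% of all genes, so such a count is no result about the list. The other 10 genes of the cilium group had a median log2 fold change of 0.027, with 7 above 0 and 3 below, and none had an unadjusted p under 0.05.

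Lrp2, a large endocytic receptor for Shh, was at 5.44, 4.22 and 4.93 CPM in vehicle and at 4.24, 2.76 and 1.75 CPM in BPA. It rested on 6 to 37 counts per library. The log2 fold change was -0.65 (SE 0.307; edgeR, unadjusted p = 0.0494, adjusted p = 1). With 1 library left out, the log2 fold change ran from -1.03 without BPA replicate 1 (unadjusted p = 0.0117) to -0.47 without BPA replicate 3, the library with 6 counts (unadjusted p = 0.161). The unadjusted p was also above 0.05 without BPA replicate 2 (0.128), vehicle replicate 1 (0.136) or vehicle replicate 3 (0.0845). The glypican gene Gpc3, the other receptor gene named for its level, was at 7.56 CPM ± 2.62 in vehicle and 6.94 CPM ± 4.07 in BPA (SD, n = 3).

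Ligand release, Gli processing and targets held no gene with an unadjusted p under 0.05. For ligand release, Disp2, of the Dispatched family, had a mean of 169 CPM in vehicle and 177 CPM in BPA, a log2 fold change of 0.058, and Scube1 was at 170 CPM ± 13.5 and 175 CPM ± 18.9 (SD, n = 3). Of 5 tested genes of this role, 5 had a log2 fold change above 0, the highest 0.11, against 6942 of all 13741 genes tested. Each of the 5 fell below 0 in at least 1 fit with 1 library left out, so their shared sign is no result. In the cilium, the kinesin gene Kif3a was at 162 CPM ± 1.32 and 162 CPM ± 5.10, and Gpr161, a receptor that holds the pathway off through protein kinase A, at 160 CPM ± 12.6 and 154 CPM ± 16.6.

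Among 13 genes that process the Gli proteins, log2 fold changes ran from -0.10 to 0.16. Prkar1a and Prkaca, subunits of protein kinase A, were at 523 CPM ± 29.1 and 169 CPM ± 8.33 in vehicle and at 517 CPM ± 30.3 and 157 CPM ± 5.04 in BPA (SD, n = 3). Among 10 targets, 5 were tested, with log2 fold changes from -0.15 to 0.055. Ccnd2, a cyclin gene, was at 765 CPM ± 59.0 and 755 CPM ± 93.8, and Mycn at 162 CPM ± 10.9 and 158 CPM ± 12.1. Hsd11b2, a target too low to be tested and named after its values were seen, had 4, 8 and 5 counts in vehicle and 1, 2 and 2 in BPA. Its groups did not overlap, beside 6.75% of all genes tested, but vehicle replicate 1 at 0.588 CPM nearly met BPA replicate 3 at 0.584 CPM. The groups of the other untested pathway genes overlapped, among them Nkx2-2 with 0, 7 and 5 counts in vehicle and 3, 1 and 3 in BPA. A difference in Hsd11b2 was not tested.

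**Figure D4:**
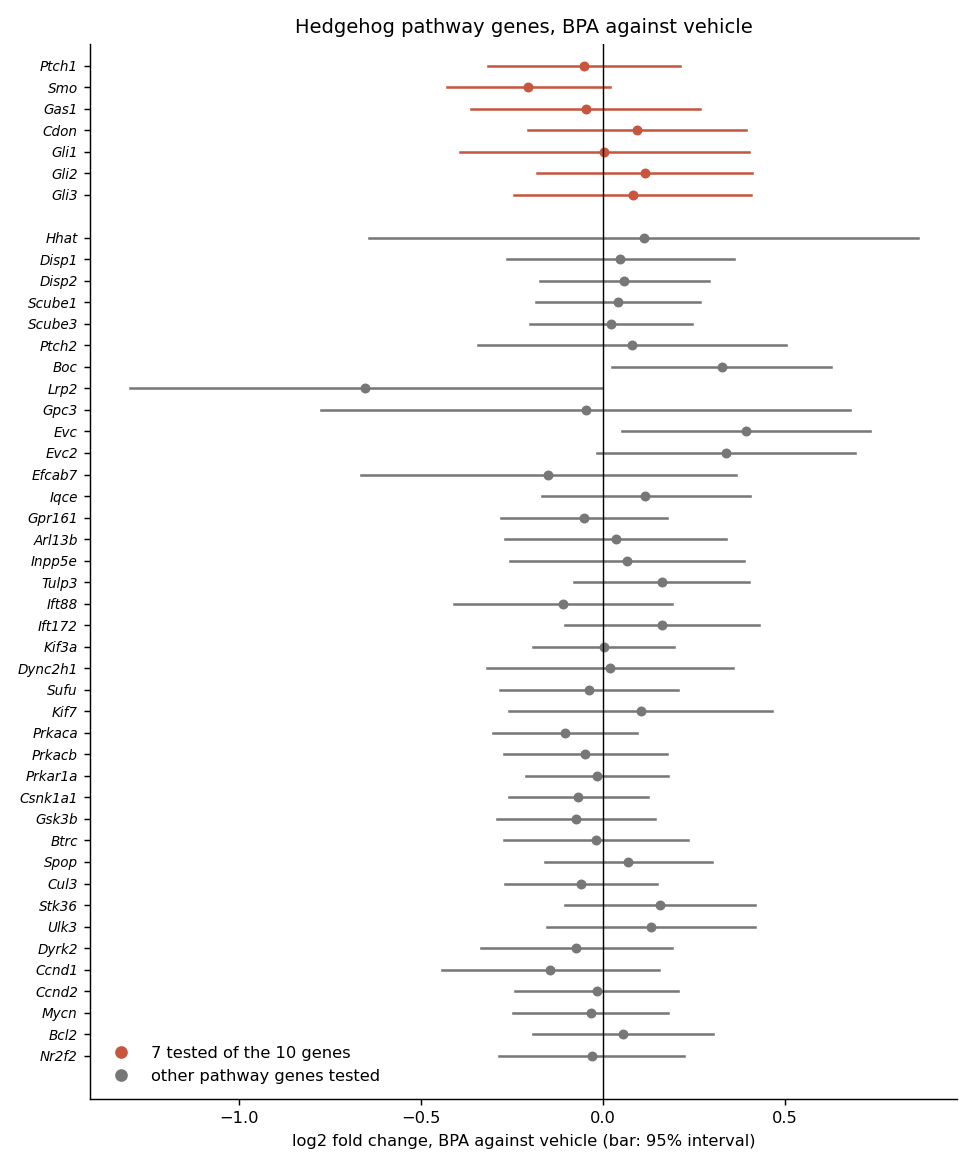
Log2 fold change, BPA against vehicle, with its 95% interval, for the 7 tested genes of the 10 (red) and the 39 other pathway genes tested (grey). The 7 intervals in red include 0, and those of Boc, Evc and Lrp2 do not before adjustment over all genes.

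Ventral marker genes were set beside these values because Shh and Nkx6-2 belong to ventral tissue. Of 21 ventral telencephalon markers, 20 had a log2 fold change below 0 and 11 were lower at an unadjusted p under 0.05, against 1.18% of all genes, with none past an adjusted p of 0.1. Their summed level was 1558 to 1834 CPM in vehicle and 1362 to 1501 CPM in BPA. The list was written with the low values of Nkx2-1, Lhx8 and Gbx1 in BPA already known, so it is no independent evidence of a direction. With 1 library left out, the count ran from 5 without BPA replicate 1 to 13 without vehicle replicate 3. It was 7 without vehicle replicate 1, 8 without vehicle replicate 2, 11 without BPA replicate 2 and 6 without BPA replicate 3. Nkx2-1, the regulator of the medial ganglionic eminence that needs Shh, had a mean of 35.9 CPM ± 8.79 in vehicle and 14.8 CPM ± 5.48 in BPA (SD, n = 3; edgeR, unadjusted p = 3.65e-05, adjusted p = 0.251). Lhx8 and Gbx1, the next by p, had log2 fold changes of -1.34 and -1.03, and the most abundant markers, Dlx1 and Gad2, of -0.21 and -0.14. Beside these, the hedgehog readouts Ptch1 and Gli1 had log2 fold changes of -0.052 and 0.0040. Their 95% intervals of the fold change were 0.804 to 1.16 and 0.761 to 1.32. The third readout, Hhip, had a ratio of 1.27 with a 95% exact interval of 0.588 to 2.76 for counting error alone. These are levels of the whole sample, and how they relate to the ventral markers was not tested. The part of ventral tissue in the values of Shh, Smo and Nkx6-2 was not tested.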

How the data were processed

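The deposited table holds the authors' raw read counts per gene symbol for 6 libraries. According to the study's methods, 50-base single-end reads of strand-specific libraries were aligned with TopHat 2.0.14 to GRCm38 and counted with featureCounts on GENCODE models, with StringTie 1.2.4 also named. Strand and multiple-alignment settings are not given in the sources used here. The labels and the methods give the same fetal age, and the study's results section a later one.

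Groups came from the treatment labels, and replicates were numbered in accession order. All CPM and fold changes were computed here. Genes kept by filterByExpr (minimum count 10, minimum total 15) were scaled by TMM and tested with edgeR 4.0.16 (quasi-likelihood, Benjamini-Hochberg over all 13741 genes, threshold 0.1) in R 4.3.3. CPM used TMM-scaled library sizes, and exon length and coordinates came from GENCODE M21 (GRCm38). Log2 profiles used a prior count of 2. The Gli ratio added 0.5 to each count. Alternatives were DESeq2 1.42.0, limma-voom 3.58.1, edgeR's exact test, other scalings and filters, and omission of each library.

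The 10 genes and the lists were chosen with earlier results of these data known. All 10 are named, with other pathway genes at an unadjusted p under 0.05, the 2 highest per kilobase in each role, the 2 highest markers of a list or those with the smallest p, and the 3 profiles nearest to Shh. No profile was matched to Nkx6-2, which had 0 to 2 counts. Counting intervals cover counting error only.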

Additional observations from a re-analysis of the deposited data

How the results depend on the processing

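Genes past an adjusted p of 0.1 numbered 0, against 3 with DESeq2, 2 with edgeR's exact test, 19 with no filter, which tested 23501 genes, and 0 to 1 when 1 library was left out. At an unadjusted p under 0.05 there were 302, against 126 with DESeq2, 620 with no filter and 194 to 708 with 1 library left out. Of the 7 to 10 hedgehog genes that each alternative tested, 0 passed either threshold. With 1 library left out, the groups of 1 to 2 of them did not overlap (Smo, and Gli2 without vehicle replicate 2), where 12.2% to 19.7% of all genes tested did not. Other pathway genes at an unadjusted p under 0.05 numbered 0 to 5 with 1 library left out. Leaving out 1 library moved the log2 fold change across 0 for Ptch1 (-0.13 to 0.075), Gas1 (-0.18 to 0.078), Cdon (-0.10 to 0.19), Gli1 (-0.090 to 0.065), Gli2 (-0.051 to 0.24) and Gli3 (-0.16 to 0.21), and the difference in the Gli1 to Gli3 ratio ran from -0.21 to 0.15. That of Smo ran from -0.23 to -0.18, and since its groups did not overlap, leaving out a library could not turn its sign. No other alternative changed the sign for any of the 7 genes. What caused these shifts was not tested. No paired analysis was possible because replicates were numbered in accession order and the labels name no shared litter or batch. Ventral marker counts under these alternatives were added after seeing the data. Depth limits Shh, Hhip and Nkx6-2 most, with 0 to 12 counts per library.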
